A study of Mus musculus with 18 samples.

Results

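The comparison described here is the difference of the IL-17 response between fibroblasts with and without knockdown of IMP2: for each gene, its IL-17 effect under Imp2 siRNA minus its IL-17 effect under control siRNA. It uses all 12 RNA-seq libraries of a series of 18 samples. The other 6 are RNA immunoprecipitation libraries, whose deposited comparison is set beside the result at the end. The cells were mouse embryonic fibroblasts of strain C57BL/6. They were transfected with a control siRNA (the treatment is labelled Mock) or an siRNA against IMP2, and 24 h later left unstimulated or stimulated for 8 h with 200 ng/mL IL-17, which gave 4 groups of 3 libraries. All 4 groups were therefore transfected, and no untransfected cells were analysed here. The labels do not say whether the 3 libraries of a group came from separate cultures or animals, so the p-values measure the spread between these libraries, which may be technical. Titles of 4 libraries, 1 in each group, begin with RB160, and those of the other 8, 2 in each group, begin with NA. The labels do not explain these prefixes.

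Interleukin-17 is an inflammatory cytokine made mainly by lymphocytes. Fibroblasts carry its receptor, which signals through the adaptor Act1 (Traf3ip2) to NF-kB and to C/EBP factors, and also prolongs the life of short-lived inflammatory mRNAs. The response of fibroblasts is known for neutrophil and monocyte chemokines, IL-6, lipocalin-2 and a set of feedback regulators. IMP2, encoded by Igf2bp2, is a cytoplasmic RNA-binding protein of the IGF2BP family that reads N6-methyladenosine (m6A) on mRNA. The title of the series places IMP2 in an axis from IL-17 and TNF to C/EBP factors, and the difference of responses asks which genes answered IL-17 to another extent when IMP2 was reduced.

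Promoters of 3 genes that rose with IL-17 are shown because they carry the sequence elements through which NF-kB and C/EBP factors are known to act. Each is the 140 bases before the gene's RefSeq start (GRCm38.p6), read 5′ to 3′ on the gene's strand. Capitals mark matches, on either strand, to the kappa B letters GGGANNTTC or the C/EBP letters TTGCNNAA. Where matches to the same letters overlap, only the first is marked. The first is at chr5:90891105-90891244 (plus strand), the second at chr5:30012974-30013113 (plus strand) and the third at chr12:55492648-55492787 (minus strand).
Cxcl1: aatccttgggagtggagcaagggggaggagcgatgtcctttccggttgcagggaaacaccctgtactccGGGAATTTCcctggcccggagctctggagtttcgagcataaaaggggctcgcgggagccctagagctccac
Il6: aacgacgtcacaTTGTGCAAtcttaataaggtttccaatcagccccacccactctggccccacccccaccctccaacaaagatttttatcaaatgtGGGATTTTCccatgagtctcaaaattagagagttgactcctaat
Nfkbia: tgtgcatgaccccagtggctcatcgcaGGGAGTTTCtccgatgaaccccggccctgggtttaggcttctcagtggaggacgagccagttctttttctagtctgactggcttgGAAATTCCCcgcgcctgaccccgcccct
The marked kappa B match of Cxcl1 lies 71 to 63 bases before the start. It is overlapped by GAATTTCCC, which matches the same letters on the other strand and was not marked. The kappa B match of Il6 lies 44 to 36 bases before the start, with a C/EBP match at 128 to 121 bases. Nfkbia has kappa B matches at 113 to 105 and 28 to 20 bases. Over 250 bases before the start, the kappa B letters were present in 9 of the 120 genes that rose with IL-17 and had a RefSeq window (7.5%), in 1.46% of the 137 genes that fell and had a window, in 3.54% of all tested genes with a window and in 3.23% of all windows. The C/EBP letters were present in 13.3% of the same risers, 11.7% of the fallers, 8.79% of tested genes and 9.56% of all windows. Kappa B matches do not overlap C/EBP matches in these 3 windows, and a match describes the sequence only.

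The libraries held 33841054 to 44433699 counts, and 13702 of 48709 genes were tested. The first principal component (62.1% of the variance) followed the title prefix, as did 9494 tested genes and the share of mitochondrial transcripts, 3.31% to 3.85% in RB160 and 5.41% to 6.90% in NA libraries. The prefix was balanced over the groups and stood in the model, and values within each prefix are given beside the results. The difference of responses was itself compared between prefixes, and 2 genes (0.0146%), Gm20458 and Gm14434, passed the threshold; each had RB160 libraries with 0 counts. Igf2bp2 (chr16:22059009-22163299, mm10) was low in all 6 Imp2 siRNA libraries: 24.6, 22.3 and 18.6 CPM (read counts relative to the size of each library) without IL-17 and 28.2, 24.3 and 18.4 CPM with it, against 134, 167 and 146 CPM and 139, 166 and 156 CPM in control siRNA cells. Here and below, the RB160 library is given first and the pair of NA libraries after it. The knockdown was of like size in both arms: the difference of IL-17 responses of Igf2bp2 itself was 0.07 on the log2 scale (95% interval -0.43 to 0.57). The 11 fibroblast markers summed to 16481 to 24026 CPM, of which collagens and Vim made up most, while other members were low. Lum was at 0 to 0.451 CPM in the 8 NA libraries and Thy1 at 0.0714 to 0.275 CPM in the 4 RB160 libraries. In the 4 NA libraries with Imp2 siRNA, Dcn was at 0.556 to 1.34 CPM and Pdgfra at 3.10 to 4.39 CPM. Markers of macrophages summed to at most 6.09 CPM, of endothelial cells to at most 1.5 CPM and of T cells to at most 0.0627 CPM, and of neural and glial cells to 36.8 to 61.4 CPM. The 7 epithelial genes summed to 37.9 to 125 CPM in control siRNA and 50.7 to 207 CPM in Imp2 siRNA libraries, and the 5 smooth muscle genes to 4047 to 10151 CPM in control siRNA and 8777 to 20084 CPM in Imp2 siRNA libraries; the part of these in the results was not tested. In bulk samples such as these, fewer cells of a type and less RNA per cell cannot be told apart.

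No gene passed the threshold for a difference of IL-17 responses: 0 of 13702 (0%) had an adjusted p of at most 0.05 in edgeR's quasi-likelihood test, and the lowest adjusted p was 0.999967. At an unadjusted p under 0.05 there were 141 genes (1.03%), 87 of them with a positive value (0.635%) and 54 with a negative one (0.394%). Evenly spread p-values would put a share of 0.05 of all genes there, so the p-values of this fit ran large. The count of 0 past the threshold therefore does not show that the responses were equal. A positive value means that the ratio of IL-17-treated to untreated level was higher with Imp2 siRNA than with control siRNA. DESeq2 and limma voom also called 0 genes, with 71 and 145 at an unadjusted p under 0.05. The count of 141 moved when single libraries were left out: it was 391 without the second control siRNA library, 263 without the second control siRNA + IL-17 library and 276 without the RB160 library of Imp2 siRNA + IL-17, with 0 genes past the threshold in each case. The spread left over by the model set how small a difference could have been seen. The prefix stood in the model as 1 shift common to all groups. The leftover therefore holds the spread between libraries and also any prefix shift that differed between groups. Of the 10318 genes whose mean reached 5 CPM in some group, 98.6% had a 95% interval that lay within ±1 on the log2 scale, and 87.4% within ±0.5. Of the 3384 genes under 5 CPM the shares were 38.6% and 3.46%, so differences of that size were not excluded for most weakly expressed genes. The median half-width of the interval was 0.90 log2 in these genes and 0.23 log2 in the 10318. These are intervals for single genes, with no adjustment for their number.

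The chemokines are the best known outputs of IL-17 in fibroblasts. Cxcl1 (chr5:90891241-90893115), which attracts neutrophils, stood at 23.5, 39.3 and 34.1 CPM in control siRNA cells and at 220, 201 and 189 CPM after IL-17. In Imp2 siRNA cells it stood at 4.80, 5.23 and 4.20 CPM and reached 53.9, 43.0 and 29.0 CPM. The 4 groups kept apart except that control siRNA without IL-17 overlapped Imp2 siRNA with IL-17. In NA, knockdown cells given IL-17 held about as much Cxcl1 mRNA as control cells that had received none. In RB160 they held more, 53.9 against 23.5 CPM. The fitted ratio was 6.28 with control siRNA and 8.85 with Imp2 siRNA. The difference of responses was 0.50 on the log2 scale (SE 0.38, 95% interval -0.38 to 1.37, unadjusted p = 0.230, not past the threshold), and 0.07 in RB160 and 0.29 in NA as log2(CPM + 1).

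The same libraries read on the scale of CPM gave Cxcl1 the opposite sign. IL-17 added 171 CPM with control siRNA and 37.2 CPM with Imp2 siRNA, a difference of increments of -134 ± 12.3 CPM (SE of a linear model over 12 libraries, with no p). It was -148 CPM in RB160 and -127 CPM in NA, and -140 to -123 CPM with each library left out in turn. A difference of log2 values asks whether the ratios differ, and a difference of increments asks whether the added mRNA differs. For a gene whose unstimulated level is already lower with Imp2 siRNA, these questions can have answers of opposite sign. The SE on the CPM scale assumes the same spread in every group, although the spread of CPM grows with the level.

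Ccl2 (chr11:82035571-82037453), which attracts monocytes, and its neighbour Ccl7 (chr11:82045712-82047525), which acts through overlapping receptors, had the same pattern. Ccl2 was at 53.3, 119 and 112 CPM in control siRNA cells and at 184, 325 and 314 CPM after IL-17. With Imp2 siRNA it was at 24.4, 23.3 and 15.1 CPM and at 112, 82.1 and 63.1 CPM after IL-17. All 3 stimulated knockdown libraries lay below all 3 stimulated control libraries. The ratios were 2.91 and 4.12, a difference of 0.50 log2 (95% interval -0.78 to 1.79), whereas the increments were 179.6 and 64.8 CPM, a difference of -115 ± 48.3 CPM. With each library left out in turn the CPM difference ranged from -156 to -94.3.

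Ccl7 had ratios of 2.62 and 3.94 (difference 0.59 log2, 95% interval -0.62 to 1.80) and increments of 104 and 43.3 CPM (difference -60.6 ± 31.4 CPM). Within the prefixes its log2 difference was 0.50 in RB160 and 0.46 in NA. Ccl20, which attracts cells bearing CCR6, was read at low depth: 0, 29 and 9 counts in control siRNA, 10, 55 and 45 with IL-17, 0, 22 and 13 in Imp2 siRNA, and 22, 90 and 71 with both. Its difference was 1.02 log2, with an interval from -0.52 to 2.57, and Ccl20 was a chemokine whose increment was larger with Imp2 siRNA, by 0.838 ± 0.496 CPM (0.545 CPM without the second Imp2 siRNA + IL-17 library). Cxcl5, another neutrophil chemokine, had 0, 3 and 3 counts in control siRNA, 63, 38 and 31 with IL-17, 0 in each of the 3 Imp2 siRNA libraries, and 3, 5 and 0 with both. Since the unstimulated knockdown libraries were all at 0, its fitted difference has no fixed size. With a floor of 3 counts over that group, the response with Imp2 siRNA was at least 2.68-fold, against 20.1-fold with control siRNA.

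**Figure D1:**
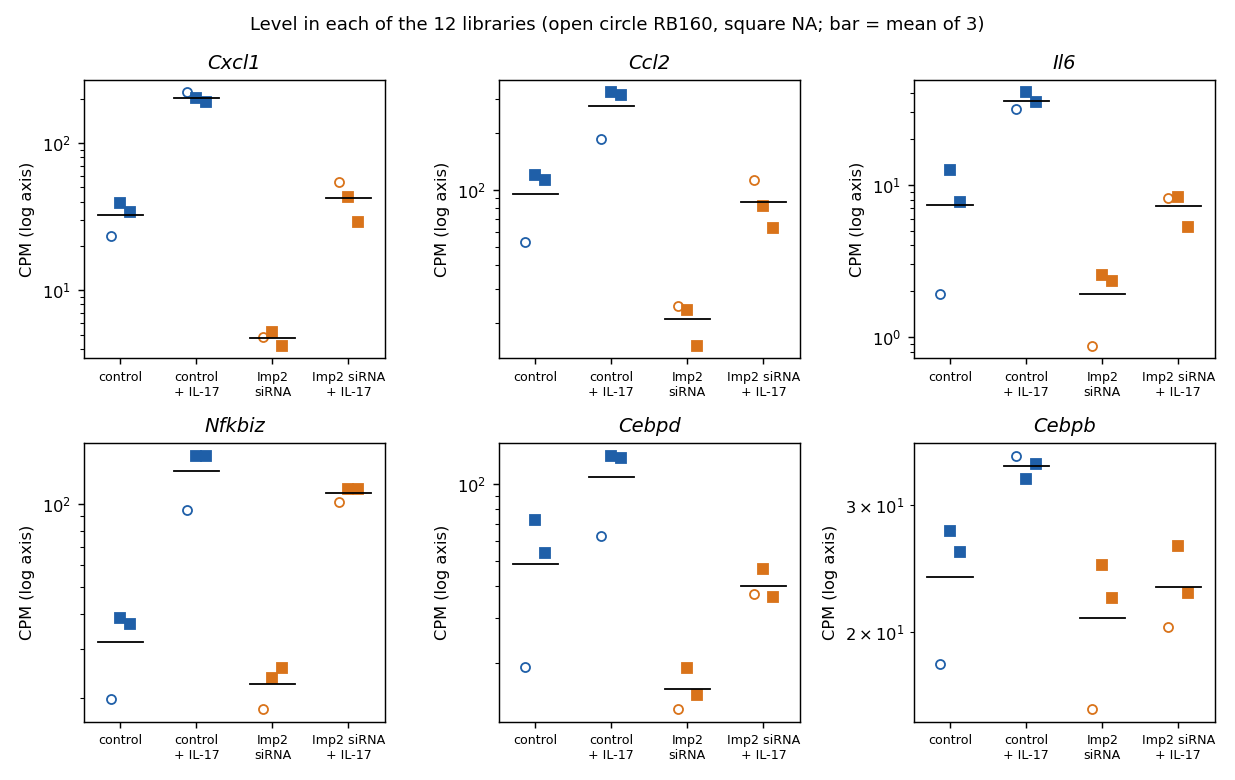
Level in CPM (log axis) of 6 genes in each of the 12 libraries, in the 4 groups along the x axis; open circles are RB160 libraries, squares NA libraries, and bars the mean of 3. Cxcl1 and Ccl2 rise in both arms from different starting levels. Nfkbiz with IL-17 lies between 94.8 and 149 CPM in both arms, which overlap only through the RB160 control. Cebpb at 20.3 to 26.3 CPM with both treatments lies below the 32.5 to 35.0 CPM of control siRNA with IL-17.

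Of a list of 17 chemokines 13 were tested, and 0 passed the threshold or had an unadjusted p under 0.05. The log2 difference was positive in 11 of them and negative in 2, with a median of 0.30, where all 13702 genes had a median of 0.00 and 6822 positive values. With Cxcl5 set at its floor, 10 were positive and the median was 0.18. Medians within the prefixes were 0.07 in RB160 and 0.18 in NA, and only 3 of the 13 genes had an interval within ±1. These values come from the same 12 libraries, so their common sign is a description and not separate evidence.

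The cytokines and the antimicrobial protein behaved less evenly. Il6 (chr5:30013114-30019981), the cytokine through which fibroblasts pass on inflammatory signals, was at 1.90, 12.5 and 7.71 CPM in control siRNA cells and at 31.8, 40.6 and 34.9 CPM after IL-17. With Imp2 siRNA it went from 0.875, 2.54 and 2.33 CPM to 8.22, 8.33 and 5.30 CPM. Over both prefixes together, the stimulated knockdown libraries lay within the range of the unstimulated controls. Within RB160 the stimulated knockdown was above its unstimulated control, 8.22 against 1.90 CPM. In NA it was 8.33 and 5.30 CPM against 12.5 and 7.71 CPM. Its ratios of 5.30 and 4.15 differed by -0.35 log2 (95% interval -2.16 to 1.45), and here the sign on the CPM scale was the same: increments of 28.4 and 5.36 CPM, a difference of -23.0 ± 3.64 CPM, -25.1 to -20.8 with each library left out. Within the prefixes the log2(CPM + 1) difference was -1.20 in RB160 and -0.68 in NA. The unstimulated RB160 control was the lowest of the 3 controls, and without single libraries the log2 difference ranged from -0.90 to 0.10.

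Lcn2 (chr2:32384633-32388252), which binds bacterial siderophores, differed between the prefixes in its unstimulated level. It was at 0.143, 42.8 and 33.4 CPM in control siRNA cells, 36.8, 121 and 88.9 CPM with IL-17, 0.0709, 3.68 and 4.93 CPM with Imp2 siRNA, and 12.9, 20.5 and 14.6 CPM with both. Unstimulated RB160 libraries thus held almost none, and unstimulated NA libraries held much more. The difference was 0.82 log2 with an interval of -2.37 to 4.02, and its sign differed between RB160 (-1.35) and NA (0.37) on the log2(CPM + 1) scale. The averaged IL-17 effect on Lcn2 did not pass the threshold either (adjusted p = 0.133). Csf3, the granulocyte growth factor G-CSF, had 3 to 116 counts per library and a difference of -0.69 log2 (95% interval -1.75 to 0.36). Its sign was not stable across scales: the log2(CPM + 1) difference was 0.12 in RB160 and -0.02 in NA, and the CPM increment was larger with Imp2 siRNA, 0.544 against 0.229 CPM.

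**Figure D2:**
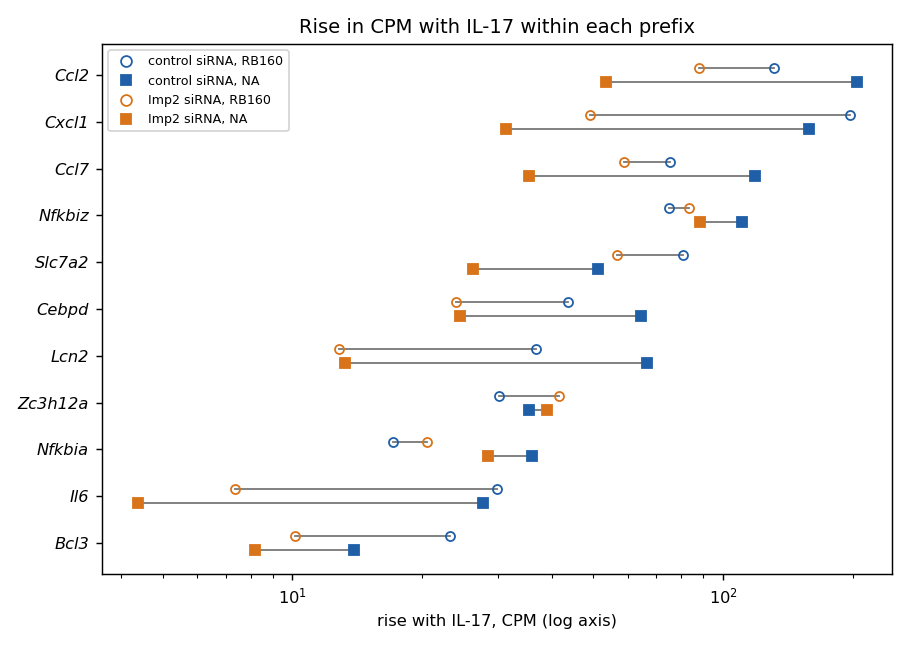
Rise in CPM with IL-17 (log axis) for 11 genes raised by IL-17, with control siRNA in blue and Imp2 siRNA in orange, as a difference of single libraries in RB160 (open circles) and of means of 2 libraries in NA (squares). The rise of Cxcl1, Ccl2, Ccl7, Il6, Lcn2, Cebpd, Slc7a2 and Bcl3 is smaller with Imp2 siRNA in both prefixes, that of Zc3h12a is larger in both, and those of Nfkbiz and Nfkbia differ in direction between prefixes.

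The regulators of NF-kB include both cofactors and inhibitors that IL-17 induces. Nfkbiz (chr16:55811375-55838899) encodes I-kappa-B-zeta, the nuclear cofactor that IL-17 uses to switch on secondary targets. It was at 19.9, 38.9 and 36.9 CPM in control siRNA cells and 94.8, 149 and 148 CPM with IL-17, and at 18.3, 23.6 and 25.8 CPM with Imp2 siRNA and 102, 113 and 113 CPM with both. Stimulated libraries of both arms overlapped only through the RB160 control at 94.8 CPM. Within NA the arms were apart, 149 and 148 CPM against 113 and 113 CPM. The ratios were 4.15 and 4.92, a difference of 0.25 log2 (95% interval -0.14 to 0.64), with 0.21 in each prefix, and the increments of 98.7 and 86.6 CPM differed by -12.1 ± 13.2 CPM, less than the SE. That CPM value was -25.7, -6.16 and -6.55 without the RB160, the second and the third control siRNA + IL-17 library, and -4.60 without the RB160 Imp2 siRNA library. In the NA libraries only it was -21.6 ± 1.33 CPM.

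Nfkbia (chr12:55489411-55492647), the classical inhibitor I-kappa-B-alpha, differed by 0.03 log2, with an interval of -0.14 to 0.19, which corresponds to a ratio of responses of 0.909 to 1.14. It stood at 44.1, 71.1 and 73.2 CPM in control siRNA, 61.2, 110 and 106 CPM with IL-17, 37.8, 59.2 and 63.5 CPM in Imp2 siRNA and 58.3, 90.3 and 89.4 CPM with both. Zc3h12a (chr4:125118423-125127840), the ribonuclease Regnase-1 that degrades inflammatory mRNAs, rose with IL-17 to ratios of 3.91 and 4.06, a difference of 0.05 log2 (95% interval -0.69 to 0.80). Its increment was larger with Imp2 siRNA, 39.9 against 33.6 CPM, a difference of 6.21 ± 2.88 CPM that was 3.97 CPM without the RB160 control siRNA + IL-17 library and 3.33 CPM in the NA libraries only. Bcl3, a nuclear I-kappa-B protein, had ratios of 1.83 and 2.15 (difference 0.23 log2, interval -0.27 to 0.74) and increments of 17 and 8.84 CPM, a difference of -8.17 ± 3.24 CPM that was -5.00 CPM without the RB160 control siRNA library. Tnfaip3, the deubiquitinase A20, differed by 0.10 log2 (interval -0.20 to 0.39).

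All 20 genes of the list of NF-kB subunits and feedback regulators were tested, with 0 past the threshold and 0 at an unadjusted p under 0.05. Of these, 17 had a positive value and 3 a negative one, the median was 0.06, and 19 had an interval within ±1. Traf1, an NF-kB target and signalling adaptor, had 0.28, and Rel and Nfkb1, a pair of subunits, had -0.17 and -0.13. Receptors and adaptors of IL-17, such as Il17ra (-0.03), Il17rc (0.11) and Traf3ip2 (-0.04), had a median of 0.01 over 14 tested genes, 7 positive and 7 negative, and all 14 intervals lay within ±1. The 14 regulators of inflammatory mRNA decay, among them Zfp36 (-0.06), Elavl1 (0.02) and Arid5a (-0.15), had a median of 0.01 and were likewise split 7 to 7.

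The C/EBP factors are those the series names. Cebpb (chr2:167688915-167690418), a transcription factor of acute inflammation, stood at 18.1, 27.6 and 25.8 CPM in control siRNA cells and 35.0, 32.5 and 34.2 CPM with IL-17. With Imp2 siRNA it stood at 15.6, 24.8 and 22.3 CPM, and at 20.3, 26.3 and 22.7 CPM with IL-17. Control siRNA libraries with and without IL-17 did not overlap, and those of Imp2 siRNA did. The ratios of 1.46 and 1.12 differed by -0.38 log2 (SE 0.18, 95% interval -0.77 to 0.00, unadjusted p = 0.0507, adjusted p = 0.999967 by edgeR), -0.56 in RB160 and -0.26 in NA. The increments were 10.1 and 2.19 CPM, a difference of -7.91 ± 3.29 CPM, or -4.98 CPM without the RB160 control siRNA + IL-17 library. Every library left out in turn kept the log2 value negative, between -0.49 and -0.19.

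Cebpd (chr16:15887286-15891031), a second inflammatory C/EBP factor, had a log2 difference whose wide interval also held the value of Cebpb. It was at 19.4, 72.3 and 54.0 CPM in control siRNA cells, 62.9, 129 and 126 CPM with IL-17, 13.2, 19.1 and 15 CPM with Imp2 siRNA and 37.2, 46.8 and 36.2 CPM with both. Its ratios of 2.27 and 2.60 differed by 0.20 log2 (95% interval -0.85 to 1.25), with opposite signs in RB160 (-0.22) and NA (0.22). The increments of 57.5 and 24.3 CPM differed by -33.1 ± 19.8 CPM, with -48.3 CPM without the RB160 control siRNA + IL-17 library and -21.6 CPM without the RB160 Imp2 siRNA library. Of the 7 listed C/EBP family genes 6 were tested, 0 passed and 0 had an unadjusted p under 0.05; 1 value was positive and 5 were negative, with a median of -0.08. Cebpa, a factor of adipocyte and myeloid differentiation, had -0.56 (interval -1.25 to 0.13) and stayed under 5 CPM, while Cebpg, a partner of other C/EBP and ATF factors, had -0.10 (interval -0.34 to 0.14).

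**Figure D3:**
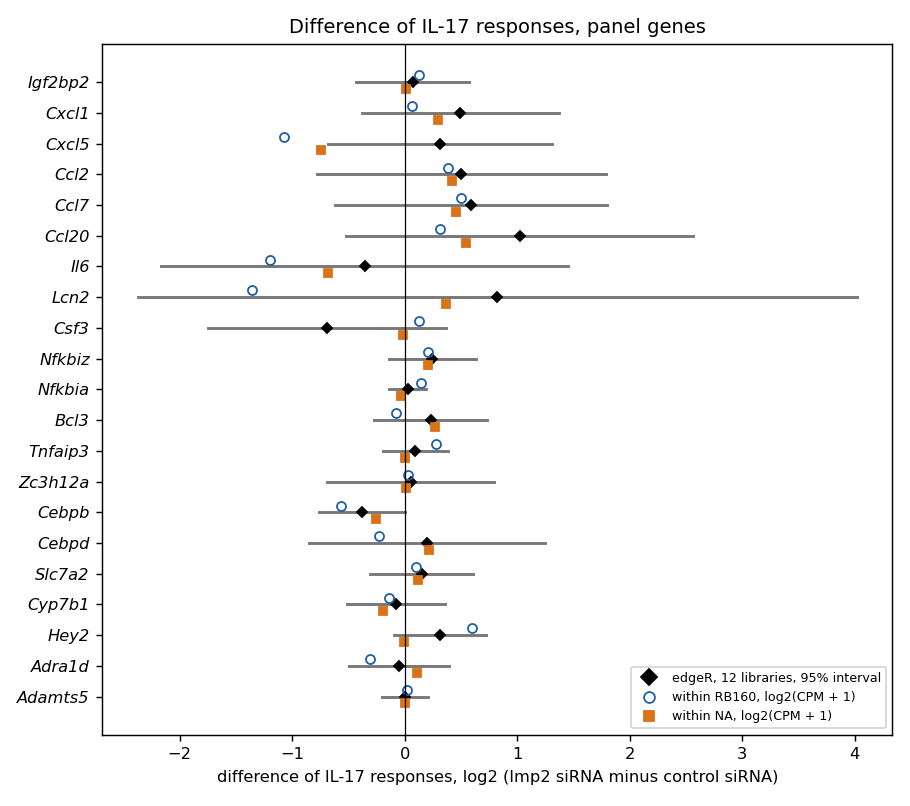
Difference of IL-17 responses (log2, Imp2 siRNA minus control siRNA) for 21 genes: diamonds and lines are edgeR values and 95% intervals over 12 libraries, open circles and squares the values within RB160 and within NA as log2(CPM + 1). Every interval includes 0 (that of Cebpb reaches 0.00), those of Nfkbia and Adamts5 are narrow, that of Lcn2 spans -2.37 to 4.02, and the diamond of Cxcl5 has no fixed size because a group was at 0.

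The amino acid transporter Slc7a2 (chr8:40862396-40922308), which carries arginine, was at 62.3, 60.1 and 50 CPM and rose to 143, 105 and 108 CPM in control siRNA cells, and went from 38.6, 23.7 and 22.3 CPM to 95.3, 51.4 and 46.9 CPM with Imp2 siRNA. Its ratios of 2.04 and 2.26 differed by 0.15 log2 (interval -0.31 to 0.61) and its increments by -24.7 ± 11.7 CPM, or -16.0 CPM without the RB160 control siRNA library. Cyp7b1, an oxysterol hydroxylase, differed by -0.08 log2 (interval -0.52 to 0.36). Among the genes that IL-17 lowered, Adamts5, an aggrecan-cleaving protease, was at 66.2, 29.8 and 28.9 CPM and fell to 41.4, 20.0 and 20.7 CPM with control siRNA, and fell from 54.2, 21.6 and 22.3 CPM to 34.4, 15.3 and 14.9 CPM with Imp2 siRNA. The ratios of 0.668 and 0.669 gave a difference of 0.00 log2, with an interval of -0.20 to 0.20. Adra1d, an adrenergic receptor, differed by -0.05 (interval -0.50 to 0.40), and the Notch effector Hey2 by 0.31 (interval -0.10 to 0.72), with 0.60 in RB160 and 0.00 in NA.

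Genes that answered IL-17 were also described as a set. They were chosen on the averaged IL-17 effect, the mean of the effects in both arms, which in this balanced design is a contrast orthogonal to the difference; the tests of both still share each gene's estimate of spread. It called 385 of 13702 genes, 176 that rose (1.28%) and 209 that fell (1.53%). That count fell to 255 and 256 without the RB160 library of control siRNA or control siRNA + IL-17, to 210, 251 and 221 without each Imp2 siRNA library, and to 232 and 252 without the RB160 or the second Imp2 siRNA + IL-17 library. Of the 385, 0 passed the threshold for the difference and 14 (3.64%) had an unadjusted p under 0.05, against 1.03% of all genes. Of these 14, 12 answered IL-17 more with Imp2 siRNA on the log2 scale and 2 less, and of all 385 the numbers were 202 and 183. The median difference was 0.02, and 338 of 385 intervals lay within ±1.

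The 176 risers had a median IL-17 effect of 0.40 log2 with control siRNA and 0.43 with Imp2 siRNA. The log2 difference was positive in 111 and negative in 65, yet the CPM increment was larger with Imp2 siRNA in 66 and smaller in 110. Both signs of Cxcl1, a positive log2 difference and a smaller increment, were found together in 53 of the 176 risers (30.1%), in 46 of the 209 fallers (22%) and in 629 of all 13702 genes (4.59%). Opposite signs on these scales arise mainly when both arms change in the same direction, which choosing genes on the averaged effect favours. The higher shares among risers and fallers therefore follow in part from that choice. For genes that fall, a smaller increment on the CPM scale is a larger fall. The 209 fallers had medians of -0.31 and -0.29, with 198 intervals within ±1. By the averaged effect, the 5 largest rises among genes past its threshold and reaching 5 CPM in a group were those of Cxcl1, Il6, Nfkbiz, Zc3h12a and Ccl2, described above. The 5 largest falls were those of Limch1 (difference of responses 0.17), St8sia2 (0.00), Aoc3 (-0.25), Adra1d (-0.05) and Pparg (-0.57). Pparg, the nuclear receptor of adipocyte differentiation, was at 17.1, 2.62 and 2.57 CPM in control siRNA cells and 11.4, 2.10 and 1.99 CPM with IL-17, and at 5.15, 1.08 and 0.671 CPM and then 2.58, 0.456 and 0.376 CPM with Imp2 siRNA. Its ratios of 0.732 and 0.492 had an interval of the difference of -1.05 to -0.10 (unadjusted p = 0.0218, adjusted p = 0.999967 by edgeR).

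**Figure D4:**
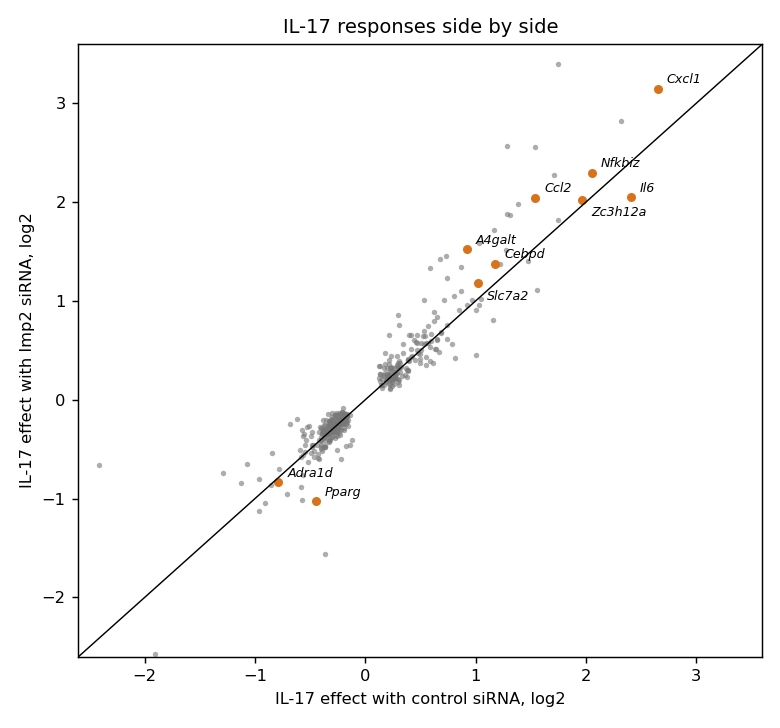
IL-17 effect (log2) with control siRNA on the x axis and with Imp2 siRNA on the y axis for genes past the threshold of the averaged IL-17 effect (382 of 385; 3 lie outside the axes), with 10 named genes in orange and the line of equal effects. The arms share no library, 338 of the 385 genes had an interval of the difference within ±1, and Cxcl1, Ccl2 and A4galt lie above it.

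Among genes of at least 5 CPM with the same sign in both prefixes, those with the smallest p-values are given as a description, since their p-values chose them. A4galt (chr15:83226726-83251774), which makes the glycolipid globotriaosylceramide, was at 7.40, 5.52 and 4.87 CPM in control siRNA cells and 14.8, 9.53 and 9.49 CPM with IL-17, against 2.10, 1.35 and 1.11 CPM and 6.98, 3.19 and 3.17 CPM with Imp2 siRNA. Its ratios were 1.89 and 2.88, a difference of 0.60 log2 (interval 0.18 to 1.03), and its increments 5.36 and 2.93 CPM, again of opposite sign. Scube3, a secreted signalling protein, was at 17, 23.0 and 22.5 CPM, then 11.1, 23.4 and 21.0 CPM with IL-17, and at 9.91, 17.7 and 17.2 CPM, then 9.79, 26.9 and 26.3 CPM with Imp2 siRNA, a difference of 0.66. Megf10, an engulfment receptor, had 0.65, the kinase Map2k6 0.45, Gm14305 0.42 and Cmtm3 0.24. Whether reads of the predicted gene Gm14305 are shared with similar copies was not tested.

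On the negative side, Prickle1 (chr15:93499114-93595891), a planar cell polarity protein, was at 6.99, 10.8 and 10.0 CPM in control siRNA cells and 8.32, 9.83 and 10.1 CPM with IL-17, and at 9.31, 15.3 and 15.8 CPM with Imp2 siRNA and 6.63, 11.1 and 11.4 CPM with both. The controls overlapped with and without IL-17. In the knockdown each prefix was lower with IL-17, and the difference was -0.52 log2 (interval -0.84 to -0.20, unadjusted p = 0.00366). C1qtnf1, a secreted C1q-related protein, had -0.38, the mitochondrial ribosomal protein Mrps18c -0.32, the Hedgehog co-receptor Cdon -0.30, the acyltransferase Lclat1 -0.21 and the asparaginase Asrgl1 -0.50. None of these 12 genes passed the threshold (adjusted p = 0.999967 for each by edgeR).

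Other gene lists were described by counts and medians. Across all 21 lists 0 members passed the threshold, and 1 member, the gelatinase Mmp9, had an unadjusted p under 0.05 (0.55 log2, interval 0.03 to 1.08), with 0.63 in RB160 and -0.01 in NA. All 18 genes of the integrated and ER stress list were tested, and 16 were negative, with a median of -0.12 that was -0.12 in RB160 and -0.10 in NA. The chaperone cofactor Sdf2l1 had -0.23, Herpud1, a component of ER-associated degradation, -0.20, the co-chaperone Dnajb9 -0.19 and the chaperone Hspa5 -0.14. All 18 of these intervals lay within ±1. Of 18 hypoxia and glycolysis genes 17 were negative, with a median of -0.10 that was -0.23 in RB160 and -0.03 in NA. Car9, a carbonic anhydrase, had -0.70 at under 5 CPM, the prolyl hydroxylase Egln3 -0.36, the pyruvate dehydrogenase kinase Pdk1 -0.32 and hexokinase Hk2 -0.20.

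The mitochondrial mRNAs were positive in 12 of 13 with a median of 0.10, which was 0.42 in RB160 and -0.08 in NA, so the sign differed between prefixes. Complement and acute phase genes were positive in 8 of 10 tested, with a median of 0.13 that was -0.26 in RB160 and 0.15 in NA; Serpina3g, a protease inhibitor, had 0.47 (interval -0.21 to 1.16). The Notch list had a median of 0.17 over 8 tested genes, 7 of them positive. Members of the IL-6 family and Socs3 were negative in 10 of 13 (median -0.05), with Socs3, the feedback inhibitor of STAT3 signalling, at -0.20 (interval -0.50 to 0.10). The AP-1 and MAP kinase feedback list was negative in 10 of 15 (median -0.05). Cholesterol synthesis (median 0.07, 12 of 16 positive), Nrf2 antioxidant genes (0.06, 10 of 12), contractile genes (0.07, 9 of 12) and interferon-stimulated genes (0.05, 12 of 16) leaned to positive values. In the same order, their medians were 0.11, 0.10, 0.09 and 0.09 in RB160. In NA they were nearer to equal responses, at 0.03, 0.04, 0.05 and 0.00.

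Matrix genes and their proteases (median -0.01, 10 of 25 positive), DNA replication and mitosis (0.02, 12 of 18), p53 targets (0.03, 8 of 12) and the IMP family and m6A regulators (-0.01, 5 of 16) had medians close to that of all genes. In the last list the paralogs Igf2bp1 and Igf2bp3 had -0.04 and -0.01, and the m6A writer Mettl3 had 0.00. The list of 26 IL-17 target genes, which overlaps several others, had 22 tested members, 16 positive and 6 negative, with a median of 0.14, or 15 and 0.11 with Cxcl5 at its floor. Its medians within the prefixes were 0.02 and 0.00. Ptgs2, the inducible cyclooxygenase, had -0.22 and the protease Mmp3 had 0.63 (interval -1.75 to 3.00).

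**Figure D5:**
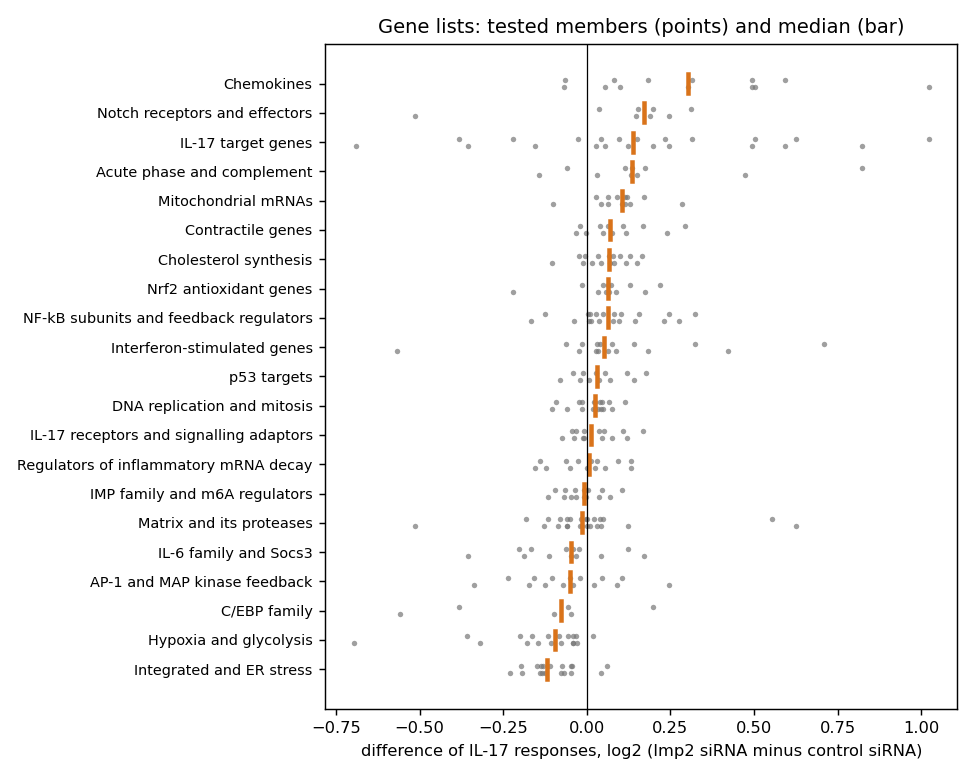
Difference of IL-17 responses (log2, Imp2 siRNA minus control siRNA) for the tested members of 21 gene lists (points) with the list median (bar), ordered by median. Medians run from -0.12 for integrated and ER stress to 0.30 for chemokines, and the 0 line marks equal responses.

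RNA immunoprecipitation gave a separate readout of which transcripts associate with IMP2. The authors' deposited table compares 3 anti-IMP2 with 3 IgG precipitations from cells given IL-17 for 3 h, and lists 5294 genes, all at a log2 fold change of 1 or more and none above 0.05 in adjusted p. In it 10 of the 21 panel genes appear, among them Cxcl1 (log2 fold change 3.58 in the authors' deposited table), Cebpd (1.97), Il6 (1.75), Cebpb (1.56) and Nfkbiz (1.20). Of the 13702 tested genes 4721 are listed, and their median difference of IL-17 responses was 0.00, as was that of the 8981 genes not listed. An unadjusted p under 0.05 was found for 23 listed genes (0.487%) and 118 others (1.31%), with wider intervals among the others (median half-width 0.35 against 0.22 log2). Among the 176 risers, the 62 that are listed had a median of 0.04 and the 114 not listed also 0.04. The share with a smaller CPM increment under Imp2 siRNA was 38 of 62 listed and 72 of 114 not listed risers.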

How the data were processed

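The authors deposited whole-number read counts per gene for 12 RNA-seq libraries, with Ensembl IDs, symbols and coordinates, per the file headers. Per the submitters' processing notes, the tools were CASAVA 1.4, STAR and DESeq2 and the build mm10; the role of each is not stated there. Libraries were made with Nextera XT, per the labels' protocols; strand is not stated, so reads of a gene and an antisense partner cannot be told apart. Of the authors' deposited RIP-seq table, log2 fold changes and adjusted p-values were used. Per the file headers it also holds a DESeq2 mean normalized signal, a standard error and a Wald score per gene, not used here. It holds only genes past its limits.

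The counts were fitted with edgeR 4.0.16 (R 4.3.3): filterByExpr, TMM factors, a robust quasi-likelihood fit of 4 groups plus the title prefix over all 12 libraries (7 residual degrees of freedom), and Benjamini-Hochberg adjustment over 13702 genes at a threshold of 0.05. The biological coefficient of variation was 7.95%. Standard errors were derived from F (the size of the log2 value over its square root). CPM are counts scaled to a common TMM-adjusted library total. Values within a prefix used log2(CPM + 1), with 0.1 CPM as the alternative. Differences of CPM increments came from a linear model with the same terms and carry no p. DESeq2 1.42.0 and limma 3.58.1 (voom) were alternatives. The fit was tested on simulated counts. Named genes were Igf2bp2, a panel of 20, the 6 positive and 6 negative values with the smallest p at 5 CPM or more with 1 sign in both prefixes, list members with an unadjusted p under 0.05 plus up to 4 per list by size, and the 5 largest averaged rises and falls. Further list members and Gm14434 and Gm20458 were chosen after their values were seen. The comparison, panel and lists were chosen with earlier results of these data known. Replicate numbers follow accession order and only name libraries. RefSeq promoter windows matched 10167 of the 13702 genes by symbol.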

Additional observations from a re-analysis of the deposited data

Results flagged for a closer look

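The difference of IL-17 responses was itself compared between the prefixes, as NA minus RB160 in a fit with 8 cells of group by prefix, in which each RB160 cell holds 1 library that is assumed to vary like the NA libraries. It passed the threshold for 2 of 13702 genes (0.0146%) by edgeR, Gm20458 (13.74 log2) and Gm14434 (8.865 log2). Both sizes come from RB160 libraries at 0 and are not interpretable as folds. Gm20458 had 0, 17, 15 and 0 counts in the RB160 libraries of control siRNA, control siRNA + IL-17, Imp2 siRNA and Imp2 siRNA + IL-17, and 183 to 279 counts in the 8 NA libraries. Gm14434 had 96, 63, 99 and 0 counts in the same 4 RB160 libraries and 157 to 217 counts in the NA libraries. Gm14434 is also the gene called in the crossed fit. Both are predicted genes, and whether their reads are shared with similar copies was not tested.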

How the results depend on the processing

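No paired analysis was possible because the RNA-seq labels give no replicate number that groups share, and RIP-seq was used only as the authors' comparison. Genes past the threshold for the difference of responses numbered 0 under RLE factors, both other filters, DESeq2, voom, no prefix term, NA libraries only and each library left out (0 to 0), and 1 (Gm14434) with prefix crossed with group. At an unadjusted p under 0.05 the 141 became 243 with no filter, 67 at 5 CPM, 71 with DESeq2, 18 without the prefix term, 321 with prefix crossed, and 127 to 391 with a library left out. The 385 genes of the averaged effect became 654 with DESeq2, 4 without the prefix term, 1311 with prefix crossed, 248 in NA only, and 210 to 537 with a library left out. The causes were not tested.

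Of 757 alternative log2 values over 38 genes 701 kept their sign and 56, in 16 genes, did not, and the lowest adjusted p was 0.142. Cxcl5 was -0.46 with DESeq2, -2.23 with voom and -1.49 with prefix crossed. In NA only, Nfkbia was -0.0324, Tnfaip3 -0.000904, Adra1d 0.12, Adamts5 -0.0048 and Limch1 -0.0876. Zc3h12a was -0.0065 with prefix crossed. St8sia2 was 0.0014 with no filter, 0.16 with voom, 0.0857 without the prefix term and 0.163 with prefix crossed. With each library left out the ranges were -0.0683 to 0.0669 for Adamts5, -0.22 to 0.12 for Adra1d, -0.66 to 0.27 for Aoc3, -0.0652 to 1.56 for Ccl20, -0.15 to 0.50 for Cebpd, -0.57 to 1.05 for Cxcl5, -0.22 to 0.0945 for Cyp7b1, -0.11 to 0.22 for Igf2bp2, -0.90 to 0.10 for Il6, -0.12 to 1.31 for Lcn2, -0.36 to 0.43 for Limch1, -0.0200 to 0.0599 for Nfkbia, -0.0465 to 0.32 for Slc7a2, -0.40 to 0.33 for St8sia2, -0.0406 to 0.19 for Tnfaip3 and -0.24 to 0.29 for Zc3h12a. Of 315 alternative CPM differences over the 21 panel genes, chosen after seeing the data, 10 moved by more than the residual SD of the linear model. In NA only these were Cxcl1 (-121), Cxcl5 (-0.760), Zc3h12a (3.33) and Hey2 (-1.27), without the RB160 control siRNA library Bcl3 (-5.00), and without the RB160 control siRNA + IL-17 library Cxcl5 (-0.807), Nfkbiz (-25.7), Nfkbia (-10.2), Cebpb (-4.98) and Cyp7b1 (-2.37). Within a prefix, Cxcl5 became -3.01 and -1.84 at a pseudocount of 0.1 CPM.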
